A study of Mus musculus with 2 samples.

Results

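Blood vascular endothelial cells were described in 2 droplet single-cell RNA libraries of mouse periodontal tissue, the gingiva and alveolar bone surface around the teeth. The cells were chosen by measured values: a kept barcode had to hold a unique molecular identifier (UMI, one counted transcript) of at least 3 of 7 gate genes (*Cdh5*, *Pecam1*, *Emcn*, *Plvap*, *Flt1*, *Egfl7*, *Vwf*) and none of *Prox1* or *Mmrn1*, which mark lymphatic vessels, or *Ptprc* (CD45), which marks leukocytes. This gave 117 cells of 1819 kept in all. The control library held 41 of 883 kept cells (4.64%, exact 95% binomial interval 3.35 to 6.25) and the library of ligature-induced periodontitis (LIP) held 76 of 936 (8.12%, 6.45 to 10.1). Both libraries came from wild-type C57BL/6 mice aged 8 weeks. The control mice were untreated, and the LIP mice had a silk ligature tied around a molar, which gathers bacteria and inflames the gum, with tissue taken 7 days later. The study's methods state that the LIP cells came from 5 mice and give no number of mice for the control library. Each condition had 1 library and no cell could be assigned to a mouse, so no difference between the conditions had a replicate check. All intervals below are exact, at 95%, and cover counting error only.

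Endothelial cells line every blood vessel. They hold blood inside through junctions of VE-cadherin (*Cdh5*) and CD31 (*Pecam1*), rest on a basement membrane of type IV collagen and laminin that they help to make, and differ along the vessel tree. Arterial cells carry Notch target genes and connexins, capillary cells take up fatty acids and other solutes, and cells of the small venules display selectins, by which leukocytes slow down and leave the blood. In inflamed gum, neutrophils enter the tissue through these venules.

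The depth differed between the libraries. The control cells held 315563 UMIs, with a median of 5834 per cell (range 624 to 35011) and a median of 2368 genes. The LIP cells held 914232 UMIs, with a median of 8985 (904 to 55680) and a median of 2982 genes. The median share of mitochondrial UMIs was 4.44% and 4.28%. A level in CPM is the endothelial UMI sum of a gene in 1 library, scaled so that all genes add up to 1000000. A sum of 0 allows up to 9.51 CPM in control and 3.28 CPM in LIP, the value of 3 counts. One control cell, the deepest, held 11.1% of all control UMIs in this class, and the main capillary and lipid genes below are given with and without it.

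The cells carried the markers of their label. *Cdh5* stood at 963 CPM in control and 982 CPM in LIP, with a UMI in 39 of 41 and 73 of 76 cells. *Pecam1* stood at 1271 and 1267 CPM, in 40 and 74 cells. *Plvap*, which forms the diaphragms of vessel-wall pores, was in 24 and 63 cells, and *Selp* (P-selectin), the fourth marker of the label and not part of the gate, in 8 and 38. These values describe the choice of cells. The lymphatic markers *Pdpn* and *Reln*, which the gate did not use, were at 0 in both libraries, *Ccl21a* had 1 UMI in control and none in LIP, and *Lyve1* had 8 UMIs, all in 1 LIP cell. *Flt4* (VEGFR3), which blood capillaries can also carry, had 12 UMIs in 9 control and 29 in 22 LIP cells, and *Pard6g* had 1 and 5 UMIs. Few cells lay at the threshold. In control, 2 cells had 3 gate genes and 5 cells with none of the excluded genes had 2. In LIP, 4 cells had 3 and 14 had 2. Among cells with 3 or more gate genes, *Prox1* was found in 19 control and 5 LIP cells and *Ptprc* in 0 control and 6 LIP cells, all left out.

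Transcripts of other cell types were present at low levels. The macrophage genes *Csf1r*, *C1qa*, *C1qb*, *C1qc*, *Mrc1* and *Adgre1* and the T-cell genes *Cd3e*, *Cd3d* and *Cd3g* were at 0 in both libraries. Over the 10 neutrophil markers the summed level was 152 CPM in control and 335 CPM in LIP. *S100a9*, the most abundant of them, had a UMI in 18 control and 56 LIP cells, 43.9% and 73.7%. In mural cells, which should lack it, the shares were 47.6% and 92.1%, at median depths of 11818 and 12235 UMIs, so the endothelial share is read as background. *Csf3r* and *Cxcr2*, the defining neutrophil receptors, had 0 UMIs in control and 3 and 1 in LIP. The 10 epithelial markers summed to 678 CPM in control and 88.6 CPM in LIP, with *Krt14* the most abundant. The 9 mural markers summed to 181 and 840.05 CPM, led by *Rgs5*, and the 8 fibroblast and osteogenic markers to 146 and 979 CPM, led by *Col1a1*. Of the 9 mural markers, *Pdgfrb*, *Notch3*, *Cspg4*, *Kcnj8* and *Des* were at 0 in control, and *Pdgfra* was at 0 in both libraries. One control and 2 LIP cells also met the gate of another class, and they carried much of this signal. A LIP cell of 49604 UMIs met the mural gate and held 261 of 269 *Rgs5*, 195 of 278 *Acta2* and 248 of 293 *Col1a1* UMIs of the LIP cells, no *Cdh5* or *Pecam1*, and 6 UMIs of *Plvap*, 3 of *Flt1* and 1 of *Emcn*. A LIP cell of 19406 UMIs met the fibroblast or osteogenic gate and held 63 *Acta2* and 16 *Cdh5* UMIs. The control cell, of 24236 UMIs, met the epithelial gate and held 47 *Krt5* and 58 *Krt14* UMIs beside 8 of *Cdh5*, 14 of *Pecam1* and 117 of *Selp*. Without the 3 cells the mural markers summed to 196 CPM in control and 142 CPM in LIP, the fibroblast and osteogenic ones to 141 and 276 CPM and the epithelial ones to 189 and 93.5 CPM, and *Cspg4* and *Des* were at 0 in LIP. Several results that moved without them are given both ways. No cell barcode of the class was shared between the libraries.

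The genes that set these cells apart from all other kept cells were a description of the gate. The 10 with the highest ratio outside the gate genes were *Gja5*, *Gkn3*, *Gm12002*, *Thrsp*, *Ssu2*, *Sox17*, *Srarp*, *Ptprr*, *Tmem255b* and *8430408G22Rik*. *Gja5* (connexin 40), an arterial gap-junction protein, had 116 UMIs in the 117 cells and 1 in all other kept cells. *Sox17*, a transcription factor of arterial endothelium, had 406 against 24.

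The first comparison asked which endothelial genes differed in level between LIP and control. Of 4083 genes with at least 50 UMIs over both libraries, 256 (6.27%) were at least 2-fold higher in LIP and 157 (3.85%) at least 2-fold lower, with a median log2 ratio of 0.03. These shares are the background for the counts below. Among the lists of endothelial functions, those of the basement membrane (higher in LIP) and of capillary and lipid handling (lower in LIP) had the most members past 2-fold.

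**Figure D1:**
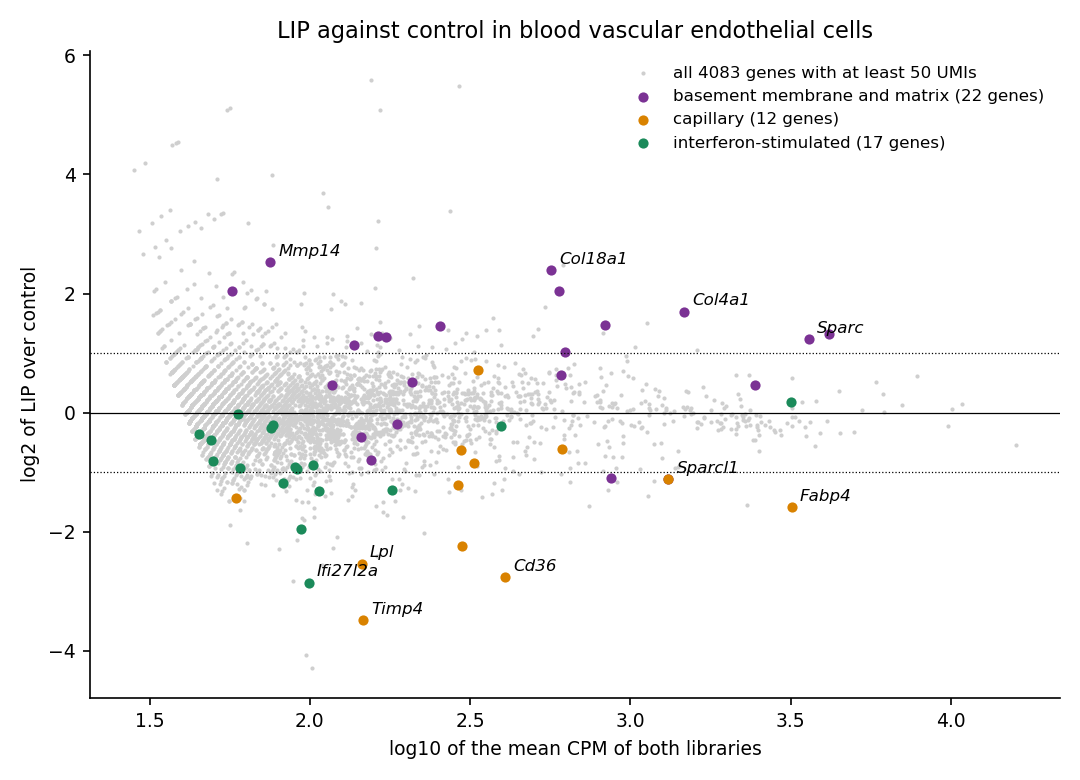
Each point is one of 4083 genes, with the log10 of the mean CPM of both libraries on the x axis and the log2 ratio of LIP (76 cells) over control (41 cells) on the y axis. Dotted lines mark 2-fold. Most of the 22 basement membrane and matrix genes (purple) lie above the upper line and most of the 12 capillary genes (orange) below the lower line.

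Of 23 genes of the basement membrane and matrix list, 22 were measured (at least 50 UMIs), 13 were at least 2-fold higher in LIP and 2 at least 2-fold lower, with a median log2 ratio of 1.19. The list summed to 13284 CPM in control and 24224 CPM in LIP. The collagens of the membrane were among the higher members. *Col4a1*, a chain of the type IV collagen network, had 218 UMIs in control (691 CPM) and 2045 in LIP (2237 CPM), a log2 ratio of 1.70 (interval 1.49 to 1.90). Its median over single cells was 445 CPM in control and 1073 CPM in LIP, and the ranges of the cells overlapped widely. *Col4a2*, its partner chain, stood at 440.5 and 1219.6 CPM (1.47, 1.21 to 1.73). *Col15a1* and *Col18a1*, multiplexin collagens of vessel basement membranes, had log2 ratios of 2.04 (1.69 to 2.40) and 2.40 (2.01 to 2.81). *Col15a1* was in 15 of 41 control and 51 of 76 LIP cells, and *Col18a1* in 19 and 50.

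The same side held the linkers of that network. *Nid1* and *Nid2*, the nidogens that tie laminin to collagen, had log2 ratios of 1.29 and 2.05. The laminin chains were split: *Lamb1* and *Lamc1* were at 1.14 and 1.27, while *Lama4* was at -0.19, *Lama5* at 0.47 and *Lamb2* at -0.79. *Sparc*, a collagen-binding glycoprotein, had 676 UMIs in control (2142 CPM) and 4626 in LIP (5060.0 CPM), a log2 ratio of 1.24 (1.12 to 1.36). All 76 LIP cells and 38 of 41 control cells held it. *Igfbp7*, the most abundant gene of the list, stood at 2370.4 and 5941 CPM (1.33, 1.21 to 1.44). *Serpinh1*, the collagen chaperone, was at 1.02, *Fn1* (fibronectin) at 1.45 and *Mmp14*, a membrane-bound matrix protease, at 2.53 (1.44 to 3.87) from 7 and 117 UMIs. The 2 lower members were *Sparcl1* (-1.12) and *Timp3*, a protease inhibitor held in the matrix (-1.10). The count of 13 lay between 10 and 14 under the 19 alternatives of processing and cell choice. Without the cells that met another gate the count was 10, with *Col4a1* at 1.62 (1.41 to 1.83), *Sparc* at 1.09 and *Col15a1* at 2.67, and *Lamb1* (0.96), *Serpinh1* (0.83) and *Fn1* (0.99) fell short of 2-fold. With each cell weighing the same, *Col4a1* was at 1.43 and *Sparc* at 1.0, and *Mmp14* fell to 0.79.

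*Col4a1* and *Col4a2* are neighbours that are read in opposite directions, and their starts are shown because both were among the higher genes. In RefSeq (GRCm38.p6) the *Col4a1* start used here, on the minus strand of chromosome 8, is base 11312826 and that of *Col4a2*, on the plus strand, is base 11312805, 21 bases apart. The windows from 250 bases before to 50 bases after each start span chr8:11312777-11313076 and chr8:11312555-11312854. They are written 5′ to 3′ on the strand of each gene, and capitals mark the 78 bases that both windows cover, one being the reverse complement of the other.
Col4a1: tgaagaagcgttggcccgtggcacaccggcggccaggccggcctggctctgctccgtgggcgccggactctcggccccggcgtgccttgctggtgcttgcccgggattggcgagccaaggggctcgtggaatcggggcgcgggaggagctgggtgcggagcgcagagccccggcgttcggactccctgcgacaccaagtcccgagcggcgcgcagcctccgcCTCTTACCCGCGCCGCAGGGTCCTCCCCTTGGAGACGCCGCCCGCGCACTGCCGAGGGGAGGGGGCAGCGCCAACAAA
Col4a2: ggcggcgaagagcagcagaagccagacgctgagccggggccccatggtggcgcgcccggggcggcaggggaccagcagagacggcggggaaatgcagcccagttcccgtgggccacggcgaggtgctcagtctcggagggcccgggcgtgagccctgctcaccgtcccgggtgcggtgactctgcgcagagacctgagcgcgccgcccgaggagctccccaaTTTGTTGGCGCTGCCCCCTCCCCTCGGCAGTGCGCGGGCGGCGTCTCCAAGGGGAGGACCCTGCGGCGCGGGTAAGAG

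The basement membrane genes were next set beside the same genes in other classes of the same libraries, gated by their own markers. In mural cells (42 control, 38 LIP), the pericytes and smooth muscle that share this membrane, 6 of 21 measured list members were at least 2-fold higher in LIP, beside 2.86% of all genes there, with a median log2 ratio of 0.64 against 0.07 over 3047 genes. In fibroblast or osteogenic cells (103 control, 35 LIP) 3 of 20 were higher, beside 3.94%, with a median of -0.19 against -0.16 over 5029 genes. In Schwann cells (34 control, 97 LIP) 0 of 16 were higher, beside 2.85%, and in epithelial cells 2 of 16, beside 2%. In classes that do not make this membrane few members were measured: 4 of 7 were higher in neutrophils (11.3% of all genes, median 1.42) and 2 of 3 in macrophages (9.04%, median 1.41). *Col4a1* was at 0.82 (0.64 to 1.0) in mural and 0.05 (-0.20 to 0.29) in fibroblast or osteogenic cells, beside 1.70 in endothelial cells. *Sparc* was at 0.54 and 1.10, the latter near the endothelial value. *Col15a1* was at 2.83 (1.81 to 4.02) in mural cells, from 9 and 64 UMIs. In neutrophils *Col4a1* stood at 1.77 CPM in control and 63.4 CPM in LIP, so it passed the UMI minimum there through the LIP library alone. Members that pass in this way come out higher, so the neutrophil and macrophage counts and medians are not read as results.

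**Figure D2:**
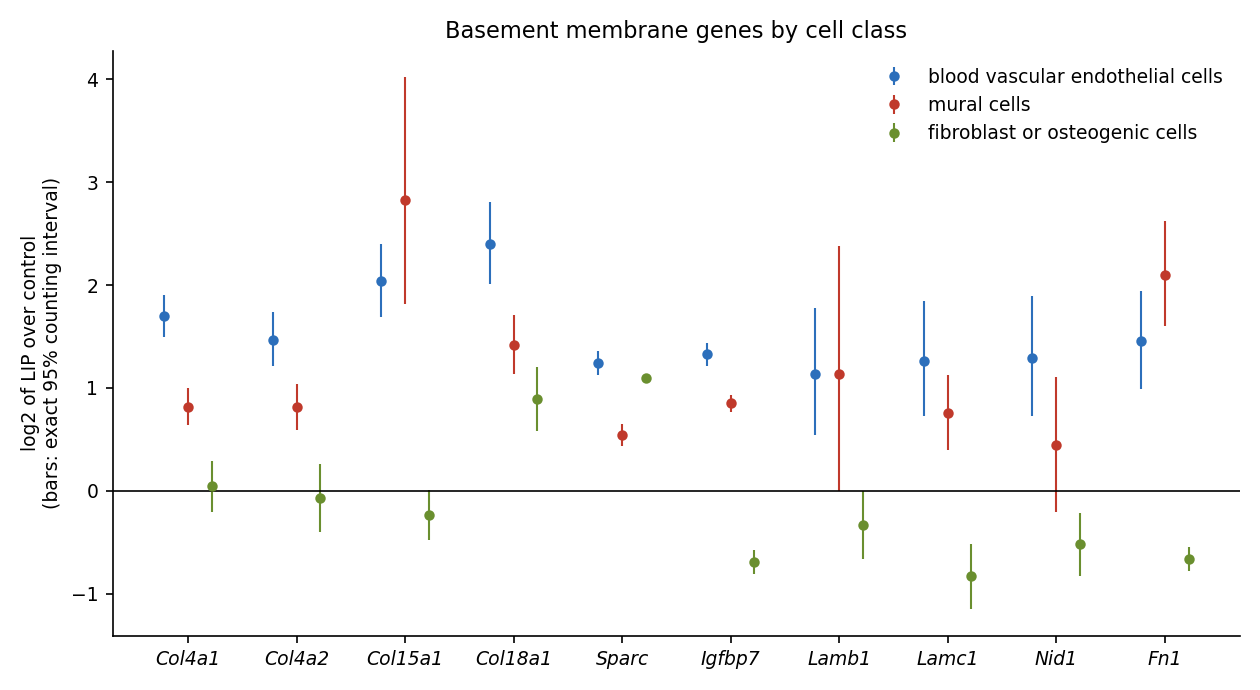
Log2 ratio of LIP over control (y axis) for 10 basement membrane genes (x axis) in blood vascular endothelial cells (blue), mural cells (red) and fibroblast or osteogenic cells (green). Points are ratios of summed CPM and bars are exact 95% counting intervals, with 1 library per condition. *Col4a1* and *Col4a2* lie highest in endothelial cells, and *Fn1* and *Col15a1* highest in mural cells.

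The second group lay lower in LIP. Of 13 capillary genes 12 were measured, 8 were at least 2-fold lower and 0 higher (median log2 ratio -1.33). Of 21 lipid and solute transport genes 16 were measured, 7 were lower and 1, the prostaglandin carrier *Slco2a1*, was higher (median -0.98). The lists overlap: *Car4*, *Cd36*, *Fabp4*, *Gpihbp1* and *Lpl*, 5 of the 8 and 5 of the 7 lower genes, are in both. *Fabp4*, a fatty-acid carrier protein, had 1506 UMIs in control (4772 CPM) and 1454 in LIP (1590.4 CPM), a log2 ratio of -1.59 (-1.69 to -1.48). *Cd36*, the fatty-acid receptor, had 224 and 96 UMIs (-2.76, -3.12 to -2.41), and *Gpihbp1*, which carries lipoprotein lipase across the capillary wall, 155 and 95 (-2.24). *Lpl*, the lipase itself, was at -2.53, *Aqp7*, a glycerol channel, at -2.83, and *Timp4* at -3.48. Few cells carried these genes. *Cd36* was in 9 control and 11 LIP cells, *Lpl* in 4 and 9 and *Timp4* in 5 and 6. Cells with UMIs of at least 2 of the capillary lipid genes made up 8 of 41 control cells (19.5%) and 14 of 76 LIP cells (18.4%, interval 10.5 to 29.0).

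One cell carried much of that signal. The deepest control cell, with 35011 UMIs, held 45.8% of the control UMIs of *Fabp4*, 60.6% of *Gpihbp1*, 73.1% of *Lpl* and 71.8% of *Timp4*. Without it, 3 capillary genes and 4 lipid and solute genes were at least 2-fold lower among those that still had 50 UMIs. *Fabp4* was then at -0.87 and *Lpl* at -0.81, while *Cd36* stayed at -2.13, *Gpihbp1* at -1.07, *Aqp7* at -2.29 and *Timp4*, then with fewer than 50 UMIs, at -1.83. With each cell weighing the same, 4 capillary genes were lower and *Car4*, a carbonic anhydrase, turned from -1.43 to 1.66, and it was at -0.17 without the deepest cell, which held 63.0% of its control UMIs. Genes of the caveolae, membrane pits rich in capillary endothelium, were spread over more cells: *Cav1* was in 37 of 41 and 73 of 76, and its median over cells was 1238 CPM in control and 912 CPM in LIP. For *Cavin2* the medians were 871 and 377 CPM, with a log2 ratio of -1.30, or -1.09 without the deepest cell. *Cav1*, *Cav2* and *Cavin1* were at -0.92, -0.98 and -0.98, or -0.65, -0.70 and -0.64 without it. *Slco2a1* was at 1.29 with it and 1.12 without.

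**Figure D3:**
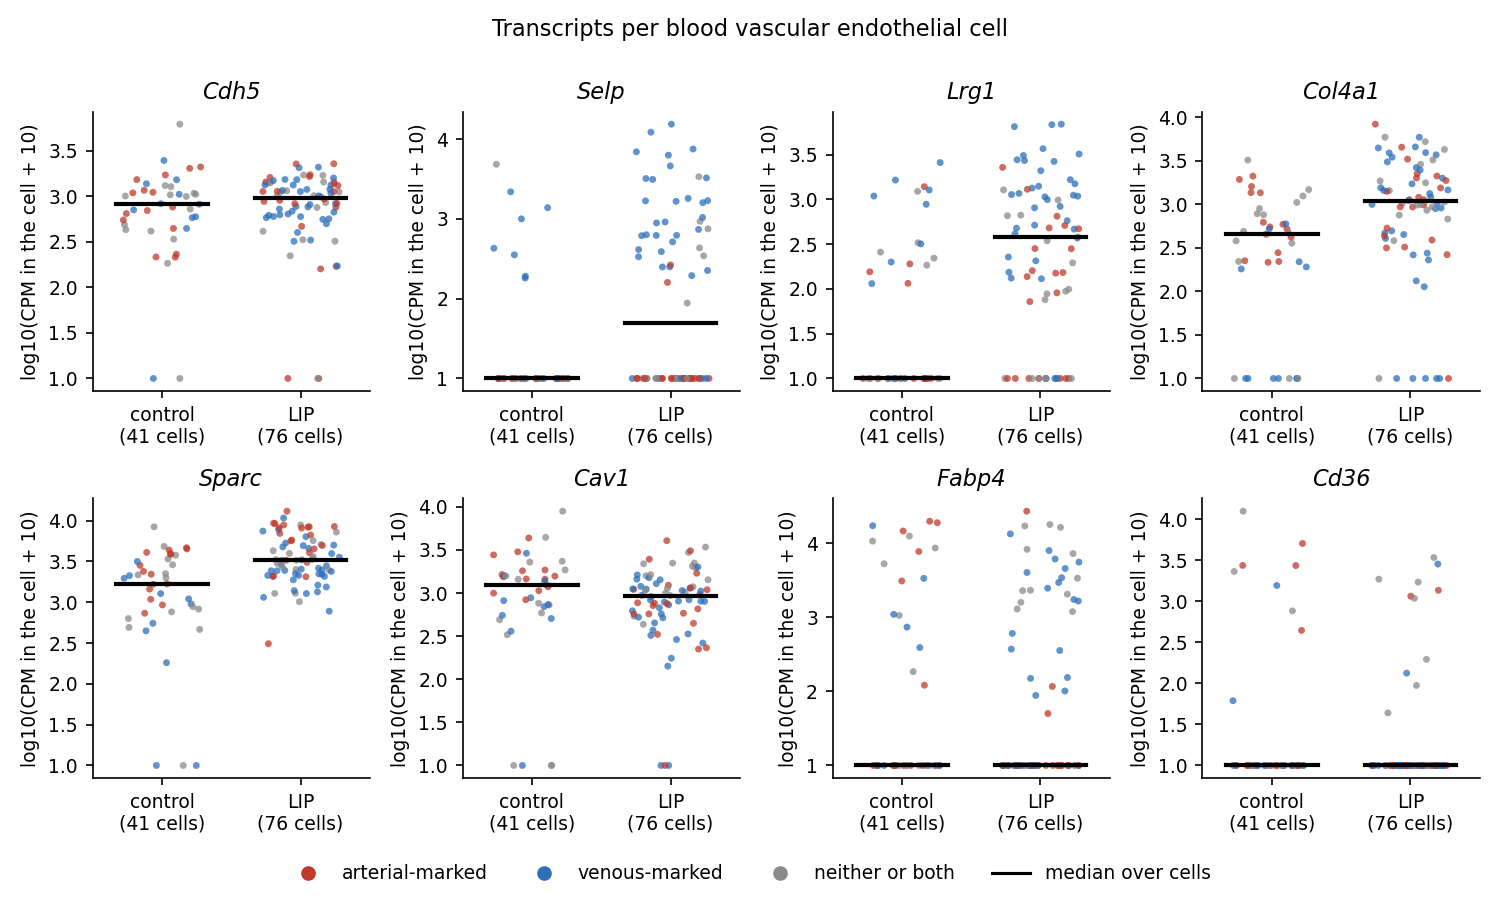
CPM in each cell, as log10 of CPM plus 10 (y axis), for 8 genes in 41 control and 76 LIP cells. Each point is a cell, coloured by its arterial or venous markers, and the black line is the median over cells. The highest LIP points of *Selp* and *Lrg1* are venous-marked, the *Col4a1* and *Sparc* medians sit higher in LIP, and *Cd36* is at 0 in most cells of both libraries.

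Venous and leukocyte adhesion genes were described next, since neutrophils, with 329 cells, were the most numerous of the gated classes in the LIP library. Of 15 venous and venular genes 13 were measured, 5 were at least 2-fold higher and 1 lower (median 0.31). Of 17 leukocyte adhesion genes 13 were measured, 3 were higher and 0 lower (median 0.14, close to the 0.03 of all genes). *Selp*, the selectin released to the surface of venules to catch leukocytes, had 147 UMIs in 8 control cells (466 CPM) and 1078 in 38 LIP cells (1179 CPM), a log2 ratio of 1.34 (1.09 to 1.60). One control cell held 117 of the 147 control UMIs, and without the top cell of each library the ratio was 3.19. That control cell is the one that met the epithelial gate, and without the cells meeting another gate *Selp* had 30 UMIs in 7 control and 1078 in 38 LIP cells (3.63, 3.11 to 4.21). With all cells thinned to 1000 UMIs, *Selp* was found in 7.69% and 12.8% of control cells and in 33.8% and 29.7% of LIP cells, in 2 random draws. *Icam1*, the ligand of leukocyte integrins, had 29 and 207 UMIs (1.30, 0.74 to 1.91), in 11 and 45 cells. *Mcam* (CD146) was at 1.33, or 0.34 with each cell weighing the same. *Sele* (E-selectin) was at 0.30 (-0.19 to 0.81), with 41 of its 45 control UMIs in 1 cell, and it was in 4 control and 25 LIP cells. The 1 cell is again the one that met the epithelial gate, and without such cells *Sele* had 4 and 160 UMIs (3.79, 2.40 to 5.68). *Vcam1* was at -0.69 (-1.22 to -0.15). Without such cells 6 venous and 4 adhesion genes were higher, and *Ackr1*, the venular chemokine-binding receptor, went from 0.97 to 1.30.

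*Lrg1*, a secreted glycoprotein linked to vessel growth, stood at 244 CPM in control and 838 CPM in LIP (1.78, 1.44 to 2.14), in 17 of 41 and 58 of 76 cells. Neutrophils of the same libraries also held it, at 1019 and 897 CPM, but mural cells had 0 UMIs in control and 3 in LIP. *Ackr1* was at 0.97 (0.53 to 1.44), *Tmem252* at 3.34 from 3 and 88 UMIs, and *Bgn*, a small proteoglycan, at 1.28. *Cpe* was the lower member, at -1.19. *Il1r1*, the receptor of interleukin-1, had 13 and 106 UMIs (1.49, 0.66 to 2.45). Over the 19 measured cytokine receptors, 2 were higher, *Il1r1* and *Ifngr2* (1.05), and 2 lower, *Il10rb* (-1.36) and *Ackr3* (-1.04). *Osmr*, the receptor of oncostatin M, the neutrophil cytokine the study centred on, was in 20 of 41 and 41 of 76 cells, at 129.9 and 98.4 CPM (-0.40, -0.95 to 0.17). Its signalling partner *Il6st* was at -0.09 (-0.31 to 0.14) and *Lifr* at -0.98.

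The window of the *Icam1* start is shown as one of the adhesion genes that were higher in LIP. It lies at chr9:21015690-21015989 on the plus strand (RefSeq, GRCm38.p6). Capitals mark the one match, 42 bases before the start, to TTCNNNGAA, the letters that STAT factors are known to bind, which read the same on both strands. These letters are found in 8.30% of 32851 windows of this length.
Icam1: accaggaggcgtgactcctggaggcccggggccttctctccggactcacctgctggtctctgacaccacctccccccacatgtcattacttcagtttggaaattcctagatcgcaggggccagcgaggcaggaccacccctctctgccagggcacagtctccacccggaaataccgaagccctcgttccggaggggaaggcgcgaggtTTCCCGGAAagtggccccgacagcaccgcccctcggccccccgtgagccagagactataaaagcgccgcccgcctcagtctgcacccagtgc
Of the other 5 windows searched, that of *Sele* also held 1 match (140 bases before the start), and those of *Selp*, *Lrg1*, *Col4a1* and *Col4a2* held none.

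The cells varied along the vessel tree. A cell with UMIs of at least 2 of *Gja4*, *Gja5*, *Hey1*, *Sema3g*, *Bmx* and *Stmn2* and fewer than 2 of *Ackr1*, *Selp*, *Sele*, *Nr2f2*, *Tmem252* and *Cysltr1* is called arterial-marked here, and the reverse venous-marked. In control, 15 of 41 cells (36.6%, 22.1 to 53.1) were arterial-marked and 11 (26.8%, 14.2 to 42.9) venous-marked. In LIP, 22 of 76 (28.9%, 19.1 to 40.5) were arterial-marked and 36 (47.4%, 35.8 to 59.2) venous-marked. Both marks were held by 2 cells in each library. Read at 2000 UMIs per cell, which left out 3 control and 5 LIP cells, the venous-marked shares were 23.7% and 31.0% and the arterial-marked shares 18.4% and 26.8%, so the shares moved with depth and their order between libraries turned for the arterial-marked cells. Among the defining markers, of 24 LIP cells with *Ackr1*, 22 held *Selp* and 0 held *Gja5*, and of 38 LIP cells with *Selp*, 1 held *Gja5* and 4 held *Gja4*. The sets were not free of each other's markers: 22 of the 36 venous-marked LIP cells and 4 of the 11 control ones held 1 arterial marker, and *Stmn2* was in 17 of those 36 LIP cells. In control, 5 of 7 cells with *Ackr1* held *Selp*.

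Outside the markers, the genes highest in venous-marked against arterial-marked LIP cells were *Cmah*, *Dcn*, *Tacr1*, *Lbp* and *Slco2a1*. *Slco2a1* had 575 UMIs in 36 venous-marked and 13 in 22 arterial-marked LIP cells (log2 ratio of arterial over venous -4.88). In control it had 53 in 11 and 8 in 15 cells (-3.83, interval -5.11 to -2.75). *Lbp*, which binds bacterial lipopolysaccharide, had 64 and 1 UMIs in LIP and 12 and 1 in control. The genes highest in arterial-marked LIP cells were *Acta2*, *Hist1h1b*, *Hist1h2ap*, *Tpm2* and *Serpinf1*. *Acta2* and *Tpm2* belong to the contractile apparatus of smooth muscle, *Hist1h1b* and *Hist1h2ap* are histone genes of dividing cells, and *Serpinf1* encodes a secreted inhibitor of vessel growth. They were in 2 to 9 of the 22 arterial-marked LIP cells, with 514 UMIs of *Hist1h2ap* in 2 cells, and the control library had at most 1 UMI of each in its arterial-marked cells. Both LIP cells that met another gate are among the arterial-marked ones, and without them *Acta2* had 14 and *Tpm2* 3 UMIs there and the 5 highest were *Cytl1*, *Hist1h2ap*, *Gkn3*, *Ptprr* and *Cldn5*. On the venous side *Mustn1*, with 146 venous-marked and 3 arterial-marked UMIs, then took the place of *Slco2a1* among the 5 highest. Of 88 genes past 2-fold between the marked cells in LIP and with enough UMIs in control, 69 had the same sign in control and 32 were past 2-fold the same way. The marks were defined on these cells, so these counts describe them and are no test.

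LIP and control were then compared within the marked sets. In venous-marked cells, 12 of 19 basement membrane genes were at least 2-fold higher, beside 13.8% of 1786 genes in all. The control cells of that set held 75352 UMIs and the LIP cells 452072. Several of the 12 passed the UMI minimum through the LIP cells, such as *Mmp14* (1 UMI in control and 71 in LIP), *Lama5* (4 and 68) and *Col18a1* (7 and 295). Members that pass in this way tend to come out higher, so the count of 12 is not read as a result. In arterial-marked cells 6 of 20 were higher (9.93% of 1611 genes), or 4 of 16 without the 2 LIP cells that met another gate and 8 of 19 without the deepest control cell, and in cells with neither mark 5 of 11 (7.05% of 525). In venous-marked cells *Col4a1* stood at 265 CPM in control, from 20 UMIs, and 2287 CPM in LIP, a log2 ratio of 3.11 (2.47 to 3.82). In arterial-marked cells it was at 1.0 (0.73 to 1.27), or 1.34 (1.02 to 1.68) without the deepest control cell. The intervals do not cover the spread between cells: of the 20 venous-marked control UMIs 16 lay in 2 of 11 cells, and 6 cells had none. In cells with neither mark it was at 1.5 (1.03 to 2.0). *Sparc* and *Igfbp7* lay close together in the marked sets: *Sparc* was at 1.39 and 1.43 in venous-marked and arterial-marked cells, and *Igfbp7* at 1.20 and 1.13. *Sele* and *Ackr1* are among the markers that define the venous-marked cells, so their values there are a description. *Sele* had 2 UMIs in venous-marked control and 150 in venous-marked LIP cells, 26.5 and 332 CPM, but the control cell with 41 of the 45 *Sele* UMIs held both marks and is not among them, and over all cells the log2 ratio was 0.30. *Ackr1* was at 0.25 (-0.24 to 0.77).

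The capillary genes followed another split. In arterial-marked cells 10 of 10 measured were at least 2-fold lower, beside 8.26% of all genes there. Several passed the UMI minimum through the control cells, such as *Lpl* (70 UMIs in control and 3 in LIP), *Timp4* (77 and 8) and *Gpihbp1* (122 and 10). *Kdr* (143 and 111) and *Sparcl1* (372 and 211) had enough UMIs in either library. Members that pass through control tend to come out lower. This count, and the one below without the deepest control cell, are therefore not read as results. In venous-marked cells 1 of 6 was lower (4.59% of all genes), and in cells with neither mark 0 of 9 were lower (1.71%) and 2 higher (7.05%). *Fabp4* was at -5.15 in arterial-marked cells, from 1187 UMIs in control and 62 in LIP, at -0.14 in venous-marked cells and at 0.37 in cells with neither mark. *Cd36* was at -5.82, -2.58 (-4.01 to -1.16) and -0.01, the venous-marked value coming from 10 UMIs in control and 10 in LIP. One venous-marked control cell held 9 of those 10 *Cd36* UMIs and 100 of the 139 *Fabp4* UMIs of that set. The venous-marked values of both genes rest largely on that cell, and ratios without it were not computed. The deepest control cell had 3 arterial markers, 0 venous markers and 6 capillary lipid genes, so it stands among the arterial-marked cells and carried 690 of those 1187 UMIs of *Fabp4*. Without it, 7 capillary genes could be measured in arterial-marked cells and 6 were lower, beside 6.41% of all genes, with *Fabp4* at -4.25 (-4.65 to -3.86) and *Cd36* at -5.12 (-6.60 to -3.94). Of the 88 *Cd36* UMIs in the other 14 control cells, 80 lay in 2 cells and 11 cells had none, and of the 497 *Fabp4* UMIs 375 lay in 2 cells.

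**Figure D4:**
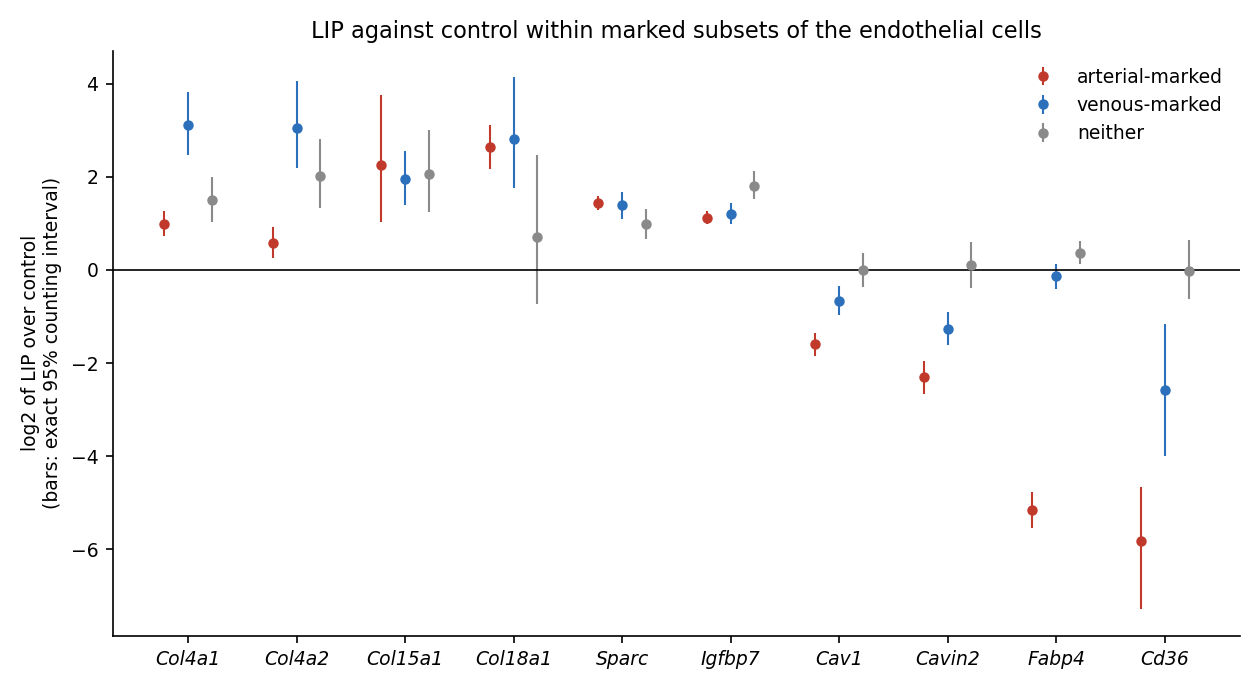
Log2 ratio of LIP over control (y axis) for 10 genes (x axis) in arterial-marked (red, 15 and 22 cells), venous-marked (blue, 11 and 36 cells) and cells with neither mark (grey, 13 and 16 cells). Bars are exact 95% counting intervals. *Col4a1* and *Col4a2* lie highest in venous-marked cells, and *Fabp4* and *Cd36* lie lowest in arterial-marked cells and near 0 in cells with neither mark.

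Genes of sprouting and of vessel growth were also compared. Of 16 tip and sprouting genes 11 were measured, 6 were at least 2-fold higher and 0 lower (median 1.14), and *Nid2* and *Lamb1*, already counted in the basement membrane list, were among the 6. Without the cells that met another gate 4 were higher. Some of the 6 had few control UMIs and passed the UMI minimum through the LIP library, so these counts and the median are not read as a result. *Plaur*, the urokinase receptor that focuses matrix cleavage at the cell front, had 6 UMIs in 4 control and 89 in 26 LIP cells (2.36, 1.18 to 3.84). *Unc5b*, a netrin receptor, was at 1.14, from 8 and 51 UMIs. *Esm1*, a tip-cell proteoglycan, was at 1.66 in 6 and 12 cells, with 39 of its 64 LIP UMIs in 1 cell. *Kdr*, the main VEGF receptor and the most abundant gene of this list, was at -0.62 (-0.85 to -0.38), or -0.23 without the deepest control cell. Of 17 measured genes of VEGF, angiopoietin and Notch signalling, 0 were higher and 1 was lower, the semaphorin and VEGF co-receptor *Nrp1* (-1.0), with a median of -0.41. *Aplnr*, the apelin receptor, was at 0.71 (0.36 to 1.08), the highest of that list. *Ptprb*, a phosphatase of the junctions and the most abundant, was at -0.75.

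Most measured interferon-stimulated genes had log2 ratios below 0, but fewer were 2-fold lower in LIP. Of 24, 17 were measured, 0 were at least 2-fold higher and 5 lower (median -0.88), and 16 of the 17 were below 0. The 5 were *Ifi27l2a* (-2.86), *Rsad2* (-1.96), *Gbp7* (-1.31), *Iigp1* (-1.30) and *Gbp2* (-1.18), the last 3 being GTPases that act against pathogens inside cells. *Rsad2*, which makes an antiviral nucleotide, had 47 UMIs in 12 control and 35 in 11 LIP cells. *Ifitm3*, the most abundant, was at 0.17, at 2966 and 3347 CPM. The whole list summed to 5371 CPM in control and 4708 CPM in LIP. *Ifi27l2a* was in 6 and 9 cells, with 32 of 55 control UMIs in 1 cell. In arterial-marked cells 2 of 4 measured members were lower, beside 8.26% of all genes, in venous-marked cells 0 of 3 (4.59%) and in cells with neither mark 0 of 2 (1.71%). Of 12 antigen presentation genes 0 were higher and 1 lower, *Cd74*, the class II chaperone (-1.49), and *B2m*, the class I light chain, stood at 1325 and 1325 CPM (interval of the log2 ratio -0.16 to 0.16).

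**Figure D5:**
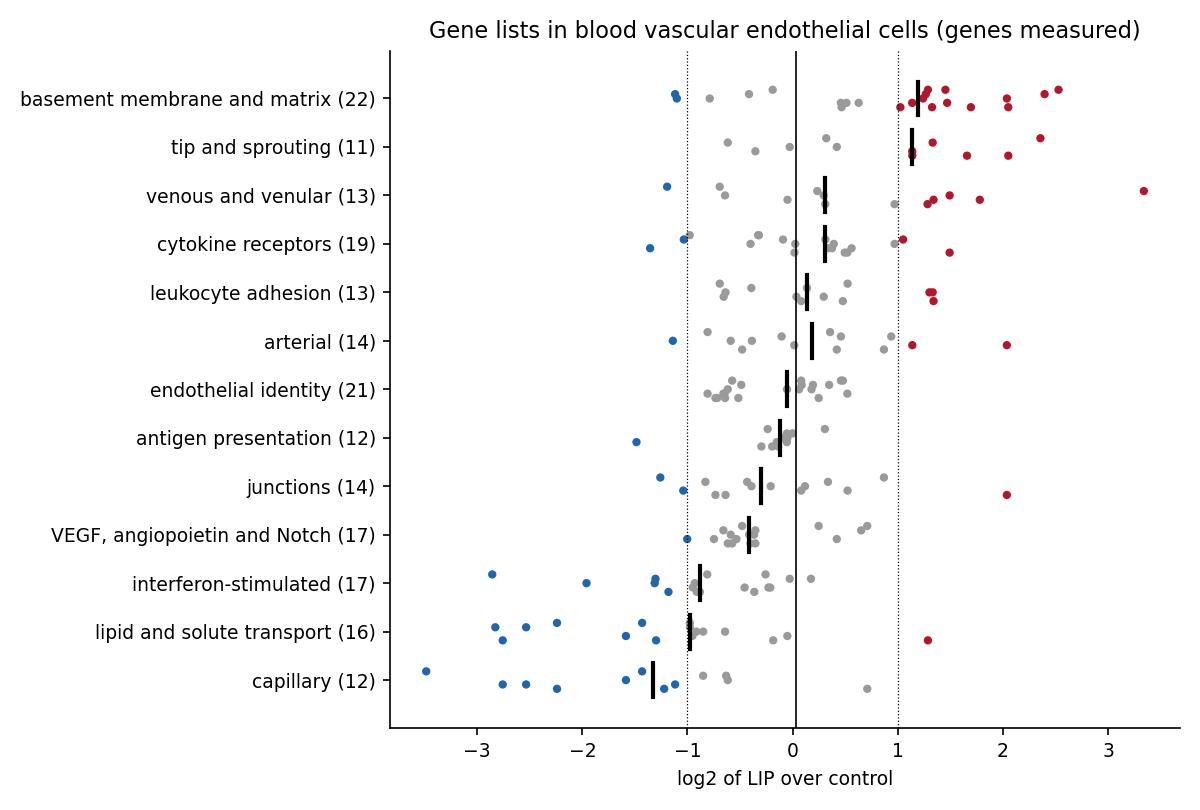
Log2 ratio of LIP over control (x axis) for the measured genes of 13 lists (y axis, number of genes in brackets). Each point is a gene, red at least 2-fold higher and blue at least 2-fold lower in LIP, black bars are list medians, and the long vertical line is the median of all 4083 genes (0.03). Basement membrane genes lie to the right and capillary, lipid and interferon-stimulated genes to the left. Sprouting genes also lie to the right, but some passed the UMI minimum through the LIP library, so their position is not read as a result.

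The genes of endothelial identity did not differ by 2-fold. Of 24, 21 were measured, 0 were higher and 0 lower, and the median was -0.05. *Ly6c1*, the most abundant, was at -0.65 (-0.76 to -0.53), *Eng*, the TGF-beta co-receptor, the highest at 0.52, and *Sox17* the lowest at -0.81. Of 14 arterial genes 2 were higher, *Gja5* (2.04, from 9 and 107 UMIs) and *Unc5b*, and 1 lower, *Cxcl12*, the chemokine that holds neutrophils and stem cells in marrow (-1.14, -1.31 to -0.97). *Cxcl12* stood at 1629 and 739 CPM, with ratios of -1.27 in arterial-marked, -2.30 in venous-marked and 0.88 (0.43 to 1.35) in cells with neither mark. *Mgp*, the most abundant of that list, was at 0.46 over all cells, at 1.33 in arterial-marked, -1.20 in venous-marked and -1.5 in cells with neither mark. In arterial-marked cells it was at 0.98 without the deepest control cell, and another control cell held 290 of the 461 control UMIs there. Of 14 junction genes 1 was higher, *Gja5*, and 2 lower, *Jup* (plakoglobin, -1.26) and *Tjp1* (ZO-1, -1.04), and *Cldn5*, the tight-junction claudin, was at -0.73, in 20 of 41 and 26 of 76 cells.

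Genes of clotting and of flow were split. Of 14 coagulation and vascular tone genes, 3 were higher and 1 lower. Among the higher ones, *F2r*, a thrombin receptor, was at 1.47 and *Tfpi*, the inhibitor of tissue factor, at 1.35. With each cell weighing the same they were at 1.09 and 0.26. *Thbd* (thrombomodulin), which turns thrombin to anticoagulant use, was the lower one, at 564 CPM in control and 229 CPM in LIP (-1.30, -1.60 to -1.01), or -0.44 with each cell weighing the same. Of 16 shear-responsive and vascular transcription genes 1 was higher, *Meox1* (1.32, or 2.77 without the cells that met another gate), and 3 lower, *Thbd*, *Ets2* (-1.11) and *Klf4* (-1.03), which with *Klf2* (-0.40) responds to flow. *Tcf4*, the most abundant, was at -0.51. *Fos*, an immediate-early gene that tissue digestion can also raise, was at -1.56, and of the 19 measured immediate-early and heat shock genes 2 were higher and 2 lower. Of 12 NF-kappaB and STAT3 feedback genes 2 were higher, *Bcl3* (1.87) and *Tnip1* (1.08), and *Nfkbia*, the most abundant, was at 0.06 (-0.20 to 0.32). *Socs3*, the feedback inhibitor of STAT3, was at 0.88 (0.23 to 1.59). None of 9 measured glycolysis genes was past 2-fold, with *Gapdh* at 0.87 and *Pgk1* at 0.95.

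The extremes of the whole list were held by few cells. Extremes were ranked among genes detected in at least 10% of cells of the higher library. The 10 with the highest ratio were *Acta2*, *Hist1h2ap*, *Cks2*, *Col1a1*, *Exoc3l4*, *Col1a2*, *Col3a1*, *Ctsc*, *Lgals1* and *Dut*, with log2 ratios from 3.36 to 5.58. *Acta2*, a smooth-muscle actin, had 195 of 278 LIP UMIs in 1 cell, and *Col1a1*, fibrillar collagen of bone and connective tissue, 248 of 293. *Col1a2* had 164 of 187 and *Col3a1* 171 of 191 in 1 cell, and without the top cell of each library they were at 1.03 and 0.46. With the cells that also met another gate left out, *Acta2* was at 1.79 and *Col1a1* at 2.92. *Col1a1* had a UMI in 38 of 76 LIP cells, and at 1000 UMIs per cell in 6.76%, beside 7.40% of LIP neutrophils, so this share is read as background. *Exoc3l4* was spread more widely, with 53 UMIs over 23 LIP cells and 1 UMI in control. The 10 lowest were *Lgals7*, *Krt5*, *Timp4*, *Ifi27l2a*, *Aqp7*, *Cd36*, *Cdkn1c*, *Krt14*, *Xdh* and *Thrsp*, from -2.28 to -4.30. Of the keratin 5 transcripts, 47 of 58 control UMIs lay in 1 cell, and *Krt5* moved from -4.07 to -1.83 with the cells meeting another gate left out. *Cdkn1c*, a cell-cycle inhibitor, was in 14 control and 17 LIP cells (59 and 29 UMIs), and *Thrsp*, a regulator of lipid synthesis, in 14 and 14 cells (62 and 37 UMIs).

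Cell-cycle genes were in few cells. The list of 20 genes had 100 UMIs in control and 1336 in LIP, and 7 genes had at least 50 UMIs. Some passed that minimum through the LIP library alone, so no count of higher members is drawn from them. *Mki67* had 55 UMIs in 4 LIP cells and 0 in control, at least 6.33-fold higher against a floor of 3 counts, and *Top2a* had 67 UMIs in 2 LIP cells and 1 in control. Cells with at least 3 mitotic genes numbered 3 of 76 in LIP (3.95%, 0.822 to 11.1) and 0 of 41 in control, which allows up to 8.60%, so a difference was not detectable at this number of cells. The 3 cells had a median of 49604 UMIs, far above the 8985 of the class, and 1 of them is the cell that met the mural gate, with 18 of the *Mki67* and 29 of the *Top2a* UMIs. *Pcna*, which is needed for DNA replication, was at 0.84 in 12 and 30 cells.

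Chemokine transcripts were sparse. Of 27 chemokine and cytokine genes, 26 were among the features and 5 were measured. *Ccl2*, the monocyte attractant, had 0 UMIs in control and 139 in 4 LIP cells, 122 of them in the cell that met the mural gate, which leaves 17 in 3 cells. *Bmp4*, a growth factor, had 2 UMIs in control and 48 over 22 LIP cells, and *Cxcl1*, a neutrophil attractant, 18 UMIs in 4 and 57 in 9 cells (0.13, -0.66 to 0.98). *Tnfsf10* (TRAIL) was at -0.14. Of 18 acute-phase genes 6 were measured. Besides *Lrg1*, *Sod2*, the mitochondrial superoxide dismutase, was higher (1.07, 0.24 to 2.0) and *Ch25h*, which makes an oxysterol, lower (-1.20).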

How the data were processed

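Live cells of control and LIP periodontal tissue were captured with the 10x Genomics 3′ kit, and the authors deposited 1 matrix of raw UMI counts per library, made with Cell Ranger (3.1.0 in the matrix headers) against mm10 (GRCm38). The counts are not normalized, 31053 features were listed, and 1169 control and 1212 LIP barcodes were held. Barcodes with 200 to 7500 genes, at most 60000 UMIs and at most 10% mitochondrial UMIs were kept, the limits of the study's methods. No doublet caller was run, and cells that met a second gate were left out in an alternative. The depth of the endothelial cells was 315563 UMIs in control and 914232 in LIP.

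UMIs were summed over the cells of each library and scaled to CPM (Python 3.11.15, numpy 2.4.6, scipy 1.17.1). Log2 ratios of LIP over control carry exact conditional binomial intervals, sums exact Poisson intervals and shares exact Clopper-Pearson intervals, all checked on simulated counts. A sum of 0 was set to 3 counts over the group. With 1 library per condition no test was run and no p-value is given. A gene counts as higher or lower at 2-fold or more, among genes with at least 50 UMIs over both libraries. Named genes are the 10 highest and 10 lowest ratios detected in at least 10% of cells of the higher library, the most abundant, highest and lowest member of each of 33 lists, the gate genes and *Selp*, the 10 genes highest over other cells, and the 5 highest in each marked subset; further list members were named after their values were seen. The cell type, its rule and the gene lists were chosen with earlier results of these data known. *Cxcl11* of the chemokine list was not among the features. Promoter windows are RefSeq's. Alternatives covered the gate, cell filters, depth, scaling, the UMI minimum and single cells. Results for some genes are not reported here, although list counts include them.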

Additional observations from a re-analysis of the deposited data

Results flagged for a closer look

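Barcodes outside the limits on genes, UMIs and mitochondrial share were not part of the report, and some of them met the endothelial gate. In the LIP library these were 23 of 276 barcodes left out, 17 of them over the mitochondrial limit and 5 over the UMI limit. In the control library they were 6 of 286, all 6 over the mitochondrial limit. The LIP number was above that of the control library, which is why it is given here. A mitochondrial limit of 20% brought the control cells from 41 to 46 and the LIP cells from 76 to 89, and the count of basement membrane and matrix genes at least 2-fold higher was then 11.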

How the results depend on the processing

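No paired analysis was possible because each condition has 1 library. The gene ratios numbered 1376, for 73 genes under 19 alternatives. Of these alternatives 5 were added after the data were seen. So were the reading of markers at 2000 UMIs and the arterial-marked cells without the deepest control cell. Of the ratios, 1111 stayed within the main interval, 252 moved outside it and 13 were counted as sign changes. A sign change was counted only for genes at least 2-fold higher or lower in the main comparison. The other ratios can therefore include sign changes, such as *Mgp* in venous-marked cells among the 252. The basement membrane count (13) stayed within 1.5 times its value under these alternatives. Genes at least 2-fold higher (256) numbered 402 with at least 2 gate genes, 734 at 20 UMIs, 113 at 100 UMIs and 165 in cells not venous-marked. Genes lower (157) numbered 448 at 20 UMIs, 64 at 100 UMIs and 82 in venous-marked cells. Capillary genes lower (8) were 4 with each cell weighing the same, 1 without capillary-lipid cells, 1 in venous-marked cells and 3 without the deepest control cell. Lipid and solute genes lower (7) were 12 at a 5% mitochondrial limit, 11 with *Ptprc* not used, and 4, 1, 1 and 4 under those same 4 settings. Sprouting genes higher (6) were 3 at a 20% mitochondrial limit, 2 at 100 UMIs and 1 in venous-marked cells. Interferon genes lower (5) were 2 at 100 UMIs, 3 without capillary-lipid cells and 0 in venous-marked cells. Adhesion genes higher (3) were 5 in venous-marked cells and 1 in the rest, and venous genes higher (5) were 2 in the rest. Both lists hold genes that define the venous mark, such as *Selp* and *Sele*, so the split partly decides these counts. The arterial-marked control share was 18.4% at 2000 UMIs, and the venous-marked LIP share 35.5% with 3 markers and 31.0% at 2000 UMIs. The 13 sign changes counted were *Esm1* at -0.48 (20% mitochondrial limit), *Acta2* at -1.64, *Krt14* at 0.55 and *Thbs1* at -0.53 (2 gate genes), *Krt14* at 0.37 (*Ptprc* not used), *Cd36* at 0.26, *Fabp4* at 0.71 and *Gpihbp1* at 0.52 (no capillary-lipid cells), *Gpihbp1* at 1.22, *Rgcc* at 0.45 and *Acta2* at -1.0 (venous-marked cells only), and *Selp* at -0.76 and *Slco2a1* at -0.10 (cells not venous-marked). *Selp* defines the venous mark, and outside venous-marked cells its 117 control UMIs lay in 1 cell, the one that met the epithelial gate. Leaving out capillary-lipid cells selects on genes then compared, so its sign changes and lower counts partly follow from the selection. Outside this count, *Car4* changed sign with each cell weighing the same and *Mgp* in venous-marked cells. With each cell weighing the same, the median of all genes was 0.11. Alternatives that use fewer cells or another minimum test other genes, and beyond that the causes were not tested.

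With 41 control cells, a summed count of 0 allows a level of up to 9.51 CPM. The libraries differ in depth per cell, and whether mice of one condition differ cannot be told from 1 library each.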

Other observations

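Haemoglobin transcripts, which free RNA of red cells can carry into any droplet, were in both libraries: *Hbb-bs* had 57 UMIs in 31 of 41 control cells and 96 UMIs in 48 of 76 LIP cells, 181 and 105 CPM, while the erythroid gene *Alas2* was at 0. Of the UMIs of *Exoc3l4* in LIP, 14 lay in arterial-marked, 28 in venous-marked and 11 in cells with neither mark.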
